A study of Homo sapiens with 66 samples.

Results

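The proteasome subunit genes were taken as the 34 genes named PSMA1 to PSMA7, PSMB1 to PSMB7, PSMC1 to PSMC6 and PSMD1 to PSMD14, found in the deposited count table by matching its Ensembl gene identifiers to gene symbols in GENCODE 29. The table held 33 of the 34 among 13331 human genes; PSMD5 was not analysed here. The 33 comprised 14 genes of the 20S core particle (7 of the alpha ring, 7 of the beta ring), 17 of the 19S regulatory particle (6 ATPases, 3 further base subunits, 8 lid subunits) and 2 chaperones of 19S assembly, PSMD9 and PSMD10, which carry PSMD names but leave the finished particle. Polyadenylated RNA was measured by Quant-seq, which counts reads at the 3' ends of transcripts, in KBM7, a human cell line from chronic myeloid leukaemia. The 9 engineered lines each carried a dTAG genotype on 1 gene, namely MED1, MED6, MED10, MED12, MED14, MED26, MED28, MED31 (subunits of the Mediator complex, which links transcription factors to RNA polymerase II) or CDK9, a kinase that releases paused RNA polymerase II. Each engineered line was treated for 6 h with DMSO or with 500 nM dTAG7, a degrader that acts on dTAG-fused proteins. Wild-type KBM7 cells, which carry no tag, received DMSO, 500 nM dTAG7, 100 nM dBET6 (a degrader of BET bromodomain proteins) or 250 nM THAL-SNS-032 (a degrader of CDK9). Each of the 22 groups had 3 libraries, A, B and C, from parallel wells, so p-values measure the spread between wells, which may be technical. Whether an engineered line is 1 clone was not given in the sources used here. Degraders act on proteins, so these RNA counts hold no check that a target was lost.

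The 26S proteasome degrades proteins that carry ubiquitin chains. In its 20S core, a barrel of stacked alpha and beta rings, PSMB5, PSMB6 and PSMB7 carry the proteolytic sites, and the alpha rings gate the entrance. The 19S regulatory particle caps the barrel: its lid and base bind and strip ubiquitin (PSMD14 is the lid's deubiquitinase, PSMD4 a ubiquitin receptor of the base), and its ring of ATPases, PSMC1 to PSMC6, unfolds the substrate and feeds it into the core. Subunit genes are often transcribed together, and the transcription factor NFE2L1 is known to raise them when proteasome activity is low.

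Promoter sequences are shown for 6 members: PSMD6, PSMD7 and PSMD12, the 3 with the lowest fold change after dBET6; PSMC1 and PSMC3, which stood among the highest there; and PSMB5, the target of the drug bortezomib. They are RefSeq sequences on GRCh38.p14, read 5' to 3' on the gene's own strand from 250 bases before the annotated start to 30 bases after it. Capitals mark any of the motifs CCAAT (an NF-Y box), TGACNNNGC (a sequence like an antioxidant response element), CCGGAAG (the core of an ETS-type site) and CACGTG (an E-box), read on either strand, so that a motif on the other strand appears as its reverse complement.
PSMD6 chr3:64023465-64023744 (minus strand): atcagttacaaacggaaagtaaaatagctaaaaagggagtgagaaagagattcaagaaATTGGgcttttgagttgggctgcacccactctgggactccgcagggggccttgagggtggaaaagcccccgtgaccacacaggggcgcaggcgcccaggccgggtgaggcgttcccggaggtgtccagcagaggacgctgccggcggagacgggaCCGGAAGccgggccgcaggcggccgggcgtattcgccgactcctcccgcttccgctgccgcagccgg
PSMD7 chr16:74296564-74296843 (plus strand): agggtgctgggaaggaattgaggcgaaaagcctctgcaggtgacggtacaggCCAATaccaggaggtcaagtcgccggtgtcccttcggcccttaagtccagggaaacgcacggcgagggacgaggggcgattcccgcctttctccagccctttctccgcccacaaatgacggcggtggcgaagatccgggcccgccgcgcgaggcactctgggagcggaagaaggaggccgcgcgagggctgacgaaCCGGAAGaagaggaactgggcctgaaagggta
PSMD12 chr17:67366548-67366827 (minus strand): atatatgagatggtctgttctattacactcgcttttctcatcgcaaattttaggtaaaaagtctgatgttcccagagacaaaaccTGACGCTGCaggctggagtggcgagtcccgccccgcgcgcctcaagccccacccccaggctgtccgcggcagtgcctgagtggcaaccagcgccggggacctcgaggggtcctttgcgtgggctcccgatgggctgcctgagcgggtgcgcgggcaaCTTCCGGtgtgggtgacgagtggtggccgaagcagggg
PSMC1 chr14:90256303-90256582 (plus strand): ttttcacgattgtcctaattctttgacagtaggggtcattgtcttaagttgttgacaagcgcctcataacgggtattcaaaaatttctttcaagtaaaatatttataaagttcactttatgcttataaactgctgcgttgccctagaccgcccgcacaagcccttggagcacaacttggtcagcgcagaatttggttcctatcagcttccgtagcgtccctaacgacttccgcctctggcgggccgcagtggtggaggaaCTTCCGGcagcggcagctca
PSMC3 chr11:47426410-47426689 (minus strand): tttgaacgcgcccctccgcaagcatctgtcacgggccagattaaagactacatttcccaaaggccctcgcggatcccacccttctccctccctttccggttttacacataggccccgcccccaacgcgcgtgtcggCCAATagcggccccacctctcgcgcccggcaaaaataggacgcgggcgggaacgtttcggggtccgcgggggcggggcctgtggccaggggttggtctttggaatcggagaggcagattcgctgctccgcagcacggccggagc
PSMB5 chr14:23035191-23035470 (minus strand): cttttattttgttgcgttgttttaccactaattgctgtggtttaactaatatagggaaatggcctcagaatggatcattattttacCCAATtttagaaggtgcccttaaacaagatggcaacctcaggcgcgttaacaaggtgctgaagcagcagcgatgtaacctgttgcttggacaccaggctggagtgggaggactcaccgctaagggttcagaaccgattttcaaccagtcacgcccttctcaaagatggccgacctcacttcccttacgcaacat

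Of the 34 members, 29 had a promoter window in the RefSeq table, and PSMA7, PSMB1, PSMB6, PSMB7 and PSMD4 had none. In windows that run 300 bases, CCGGAAG stood in 0 of 10 core-particle promoters and in 10 of the 19 regulatory-particle and chaperone promoters, against 10.7% of the 27305 promoters in the table. CCAAT stood in 15 of the 29, against 35.7% of all promoters, and TGACNNNGC in 7, against 13.6%. CACGTG stood in 2, against 7.43%. CCGGAAG was present both in PSMD6, PSMD7 and PSMD12, with the lowest changes after dBET6, and in PSMC1, with the highest. A match is a run of letters and not evidence of binding.

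The libraries held 439261 to 4337368 counts on human genes, of which the 33 members together took 0.540% to 0.717%. Spike-in RNA, added in equal amount to each lysate, took 0.626% to 1.40% of counts in 57 libraries and 3.81% to 7.11% in the 9 libraries from the dTAG7-treated CDK9 line, dBET6 and THAL-SNS-032. Those 9 libraries were also shallower, with 2762 to 10713 counts over all members against 7988 to 29266 in the others. All 33 members passed the filter on low counts on both scales, with PSMA6 and PSMB3 at the lowest counts. Replicates differed by more than sampling noise in every group, most in the dTAG7-treated MED6 line, where library A stood apart from B and C. All 12 listed blood-progenitor markers were in the table (PTPRC and MYB at medians of 384 and 710 spike-in-scaled CPM over the DMSO groups), the T-cell and B-cell genes CD3E and MS4A1 were near 0 (medians 1.49 and 0.322), and no fibroblast marker was in it.

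Each comparison was made on 2 scales. On the spike-in scale a value is relative to the RNA added to each lysate: a fall there can mean fewer cells or less RNA per cell, which cannot be told apart. On the TMM scale (edgeR's trimmed mean of M-values) a value is relative to the bulk of the other genes. Calls are genes with a Benjamini-Hochberg adjusted p under 0.05 in edgeR's quasi-likelihood test, adjusted over the 12515 genes tested on the spike-in scale or the 12892 on the TMM scale. The members' medians are given beside the medians of all genes tested, as a description. Levels are given as CPM, counts divided by a library size that came from the spike-ins or from TMM.

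In DMSO the members' levels were compared between lines as a description. Over the 10 DMSO groups the highest group mean was 1.28 times the lowest for PSMD14 and 1.73 times for PSMA1 on the spike-in scale, and the other members lay between. The DMSO-treated MED28 line had the highest mean for most members and the DMSO-treated MED12 line the lowest. In the latter, library B stood apart, with a sum over members of 6997 spike-in-scaled CPM against 8411 and 8193 in libraries A and C, and the mean of A and C lies above the 7991 of the DMSO-treated MED14 line. PSMB5, for instance, averaged 270 spike-in-scaled CPM in MED12 DMSO, 290 ± 10.3 (SD, n = 3) in wild-type DMSO and 359 in MED28 DMSO. Its ratio of highest to lowest group mean on the TMM scale was 1.17.

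All 33 members were lower on the spike-in scale after dTAG7 in the CDK9 line, dBET6 and THAL-SNS-032, and 32 were lower after dTAG7 in the MED14 line. In each of these comparisons most genes fell too: 63.3% of all genes tested fell in the MED14 line, 95.3% in the CDK9 line, 97.1% after dBET6 and 96.2% after THAL-SNS-032. The members' median log2 fold change was -0.71 in the MED14 line (all genes -0.69), -2.54 in the CDK9 line (all genes -2.93), -3.41 after dBET6 (all genes -3.67) and -2.69 after THAL-SNS-032 (all genes -2.86). The median member thus kept 60.9%, 17.2%, 9.39% and 15.5% of its DMSO level in these comparisons in turn. The dBET6 and THAL-SNS-032 comparisons share the wild-type DMSO libraries.

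**Figure D1:**
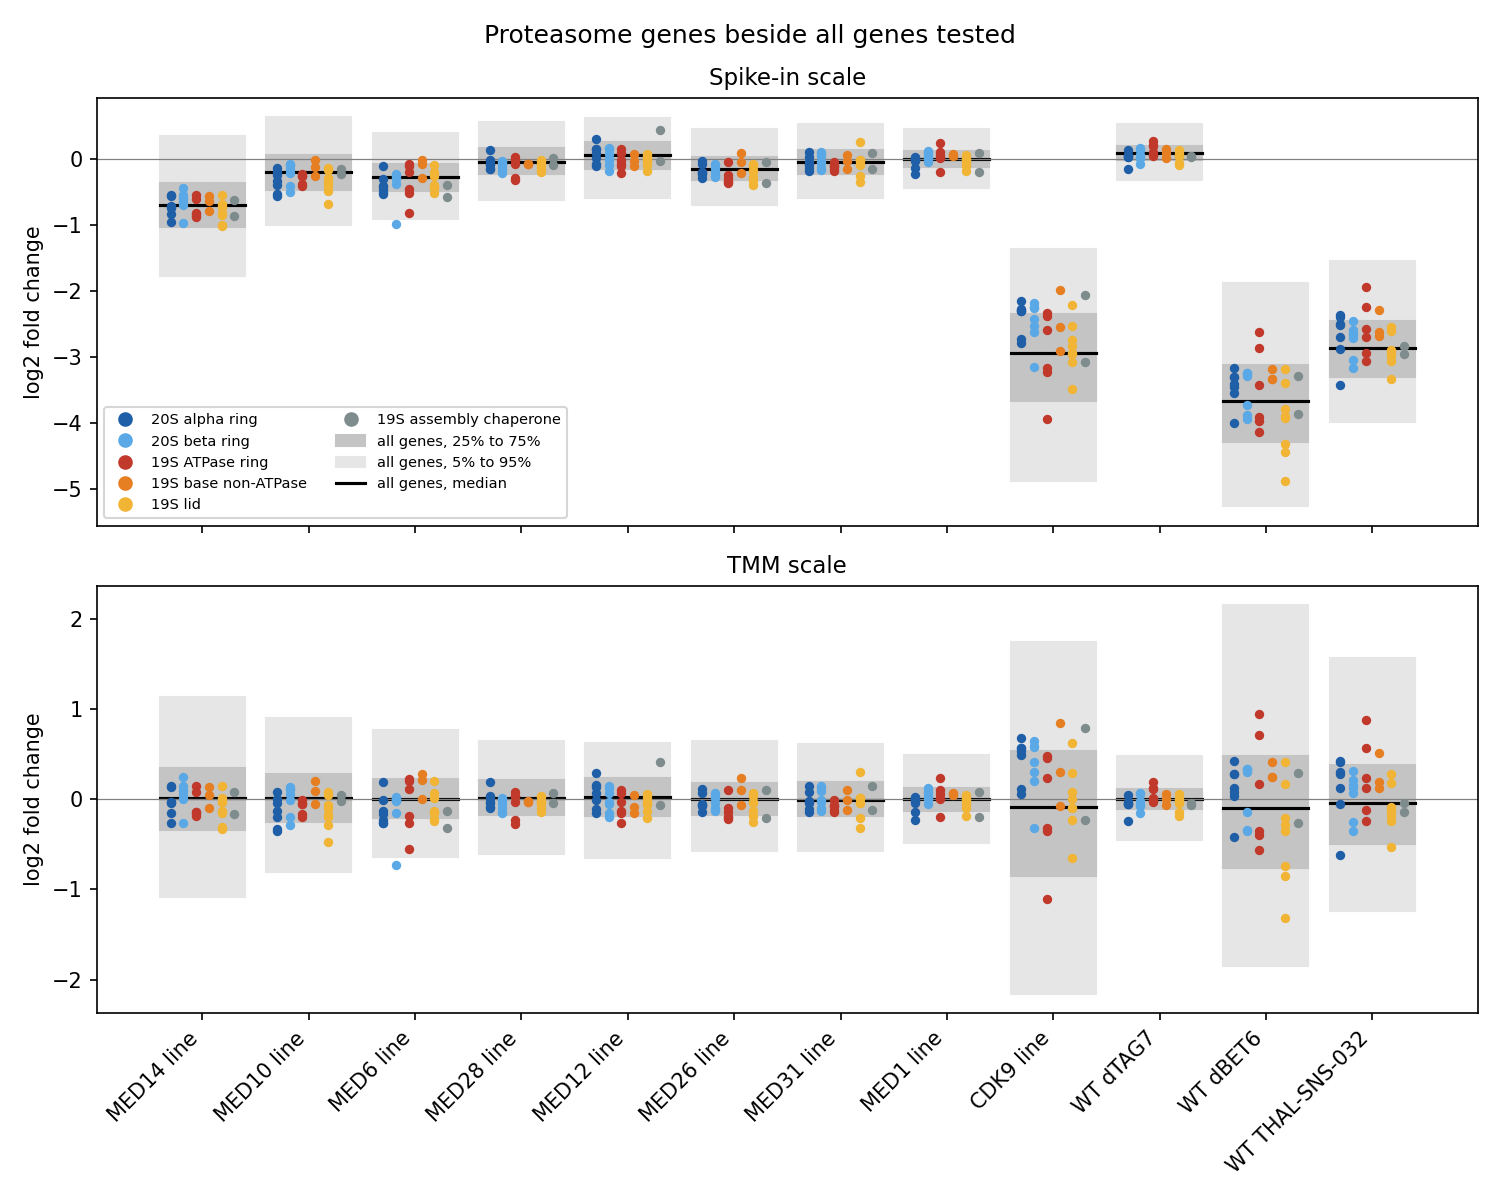
Log2 fold change of each of the 33 members (points, coloured by role) in the 12 comparisons of a treatment with the same cells in DMSO, on the spike-in scale (top) and the TMM scale (bottom). Grey boxes span 25% to 75% and 5% to 95% of all genes tested and black lines mark their medians; on the spike-in scale the members centre on -0.71 in the MED14 line and on -3.41 after dBET6.

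In the MED14 line all 3 dTAG7 libraries lay below all 3 DMSO libraries for each of the 33 members on the spike-in scale (68.2% of all genes did so), and no member was called higher (1.7% of all genes). PSMB3, a beta-ring subunit with few counts, was the one not called lower, at -0.44 ± 0.28 (SE). The lowest values were those of the lid subunits PSMD6 (-1.02 ± 0.17) and PSMD3 (-1.0 ± 0.12) and the catalytic subunit PSMB5 (-0.96 ± 0.11). PSMB5 read 258, 302 and 281 spike-in-scaled CPM in DMSO and 160, 133 and 138 in dTAG7, so its groups were far apart (edgeR adjusted p = 1.33e-11). PSMD3, a scaffold subunit of the lid, read 648, 749 and 763 in DMSO and 360, 368 and 353 in dTAG7. PSMD14, the lid's deubiquitinase, fell by 0.71 on the log2 scale (SE 0.15). By role, the median was -0.66 for the 14 core genes and -0.79 for the 17 regulatory genes. With each library left out in turn, 29 of the 32 calls held in every fit; PSMA1 was lost without dTAG7 library C, PSMC6 without dTAG7 library A or C, and PSMA6 without any of DMSO libraries A, B and C or dTAG7 libraries A and C.

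Relative to other genes, few members moved in the MED14 line: on the TMM scale 2 were called lower (16.6% of all genes) and 0 higher (13.4%), with a median of -0.03 against 0.01 for all genes. The 2 were PSMB5 (-0.27 ± 0.09) and PSMD3 (-0.31 ± 0.12). PSMB5 read 235, 255 and 244 TMM-scaled CPM in DMSO and 227, 186 and 192 in dTAG7, where library A lay close to the lowest DMSO library. In either direction 3 members had an unadjusted edgeR p under 0.05 (all lower), against 5080 of the 12892 genes tested. DESeq2 also called 0 members higher. Both calls depended on single libraries: neither was made without DMSO library B, dTAG7 library B or dTAG7 library C, and PSMD3 was also lost without DMSO library C or dTAG7 library A.

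In the MED10 line 6 members fell on the spike-in scale (19% of all genes) and 0 rose (2.71%): the alpha-ring gene PSMA4, PSMB5, and the lid genes PSMD3, PSMD6, PSMD7 and PSMD12. PSMD6 changed most, from 83.8, 88.5 and 76.7 spike-in-scaled CPM in DMSO to 49.6, 50.9 and 53.9 in dTAG7 (log2 fold change -0.68 ± 0.16). Its 2 groups did not overlap, and it was also the only member called on the TMM scale (1 lower, against 10% of all genes, and 0 higher, against 8.04%), at -0.48 ± 0.14 (edgeR adjusted p = 0.00918). The members' spike-in median was -0.25, against -0.19 for all genes. Of the 6 falls, those of PSMB5 and PSMD6 held without any 1 library; the count was 2 without DMSO library A and 3 without dTAG7 library A. With the 6 libraries of the line fitted alone, 15 members were lower on the spike-in scale, and 5 lower and 1 higher on the TMM scale. Shares of all genes under that fit are not given here, and the shares above belong to the fit to all 66 libraries.

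In the MED6 line 12 members fell on the spike-in scale (18.4% of all genes) and 0 rose (0.775%), with a median of -0.38 against -0.27 for all genes. They were PSMA2, PSMA4, PSMB3, PSMB5, PSMC2, PSMC4, PSMC6, PSMD1, PSMD3, PSMD7, PSMD9 and PSMD10. This count rested on library A of the dTAG7 group, which stood apart: it was 3 without that library (PSMA4, PSMD3 and PSMD7), 7 without DMSO library B or C, 16 without dTAG7 library B or C, and 0 when the 6 libraries of the line were fitted alone. PSMC6, an ATPase of the 19S ring, shows the pattern, with 71.8, 63.7 and 53.7 spike-in-scaled CPM in DMSO and 20.4, 47.1 and 40.7 in dTAG7 libraries A, B and C. It was the only TMM call (1 lower, against 3.65% of all genes, and 0 higher, against 2.9%), at -0.56 ± 0.17, and was not called without dTAG7 library A, DMSO library A or DMSO library B.

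No member was called in the other 6 comparisons when edgeR was fitted to all 66 libraries, on either scale. Fitted to a comparison's own libraries, edgeR called 1 member lower in MED28 on each scale and 1 lower in MED26 on the spike-in scale. Shares of all genes under that fit are not given here. When 1 library was left out of the fit to all 66, TMM calls arose in MED12. They were 1 lower and 1 higher without DMSO library A, and 1 lower without dTAG7 library C. The members' spike-in medians were -0.08 in MED28, 0.00 in MED12, -0.20 in MED26, -0.06 in MED31, 0.02 in MED1 and 0.06 in wild-type cells given dTAG7, against -0.04, 0.06, -0.14, -0.04, 0.01 and 0.09 for all genes. An unadjusted edgeR p under 0.05 was found on the spike-in scale for 1, 1, 8, 1, 0 and 0 members in these comparisons in turn. Of the 12515 genes tested, 2016, 2245, 2180, 1889, 394 and 490 had such a p. On the TMM scale it was found for 1, 2, 2, 1, 0 and 0 members. Of the 12892 genes tested there, 2453, 2734, 1829, 2282, 587 and 345 had such a p. DESeq2 called 1 member lower in MED26 on the spike-in scale and none in the others. Of all genes on the spike-in scale, 4.07% fell and 0.775% rose in MED28, 3.4% and 1.57% in MED12, 2.88% and 0.264% in MED26, 2.61% and 0.495% in MED31, and 0% in either direction in MED1 and in wild-type cells. On the TMM scale the shares were 4.33% and 2.09% in MED28, 5.7% and 3.06% in MED12, 1.41% and 0.97% in MED26, 3.02% and 1.45% in MED31, 0.00776% and 0% in MED1, and 0% in both directions in wild-type cells. PSMB5, called lower on the spike-in scale in the MED14, MED10 and MED6 lines, was also read in wild-type cells. It read 297, 302 and 314 spike-in-scaled CPM with dTAG7 and 283, 302 and 286 in DMSO, so these groups overlapped.

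The dTAG7 effect differed among the 8 Mediator lines for 24 of the 33 members on the spike-in scale (edgeR F test over the 8 effects; 46.2% of all genes), with the smallest p for PSMB5 (adjusted p = 4.31e-06). It differed on the TMM scale for 0 of 33 (12.4% of all genes), with an unadjusted p under 0.05 for 1 member, PSMD10; DESeq2 was not run on this test. The MED14-line effect was more negative than the wild-type dTAG7 effect for 30 members on the spike-in scale (57.1% of all genes) and less negative for 0 (0.623%). The 2 effects differed on the TMM scale for 0 members (10.3% of all genes lower, 6.18% higher), and DESeq2 called 0. An unadjusted edgeR p under 0.05 was found for 1 member and for 3663 of the 12892 genes tested.

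**Figure D2:**
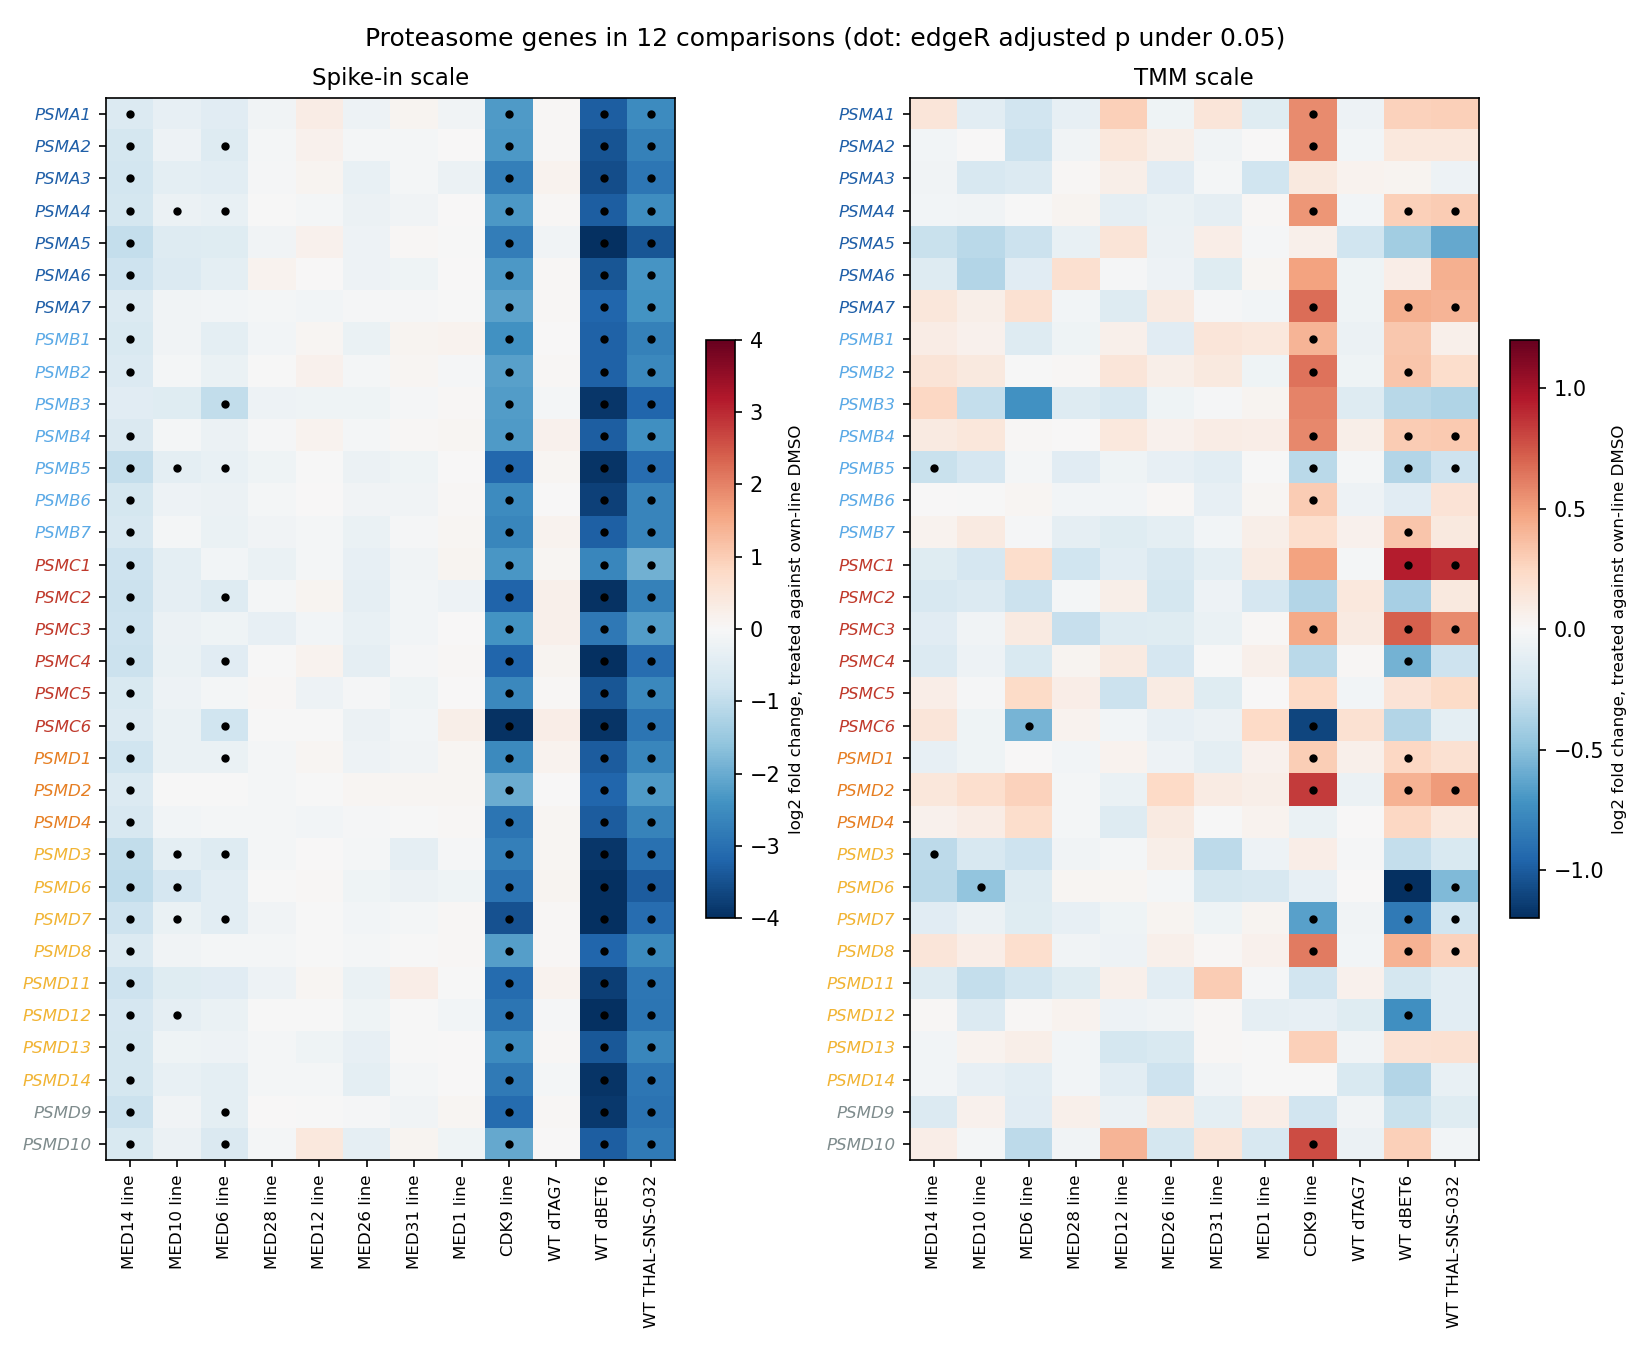
Log2 fold change of each member (rows, gene names coloured by role as in the plot beside all genes) in each comparison (columns), on the spike-in scale (left) and the TMM scale (right); dots mark edgeR adjusted p under 0.05, and colours saturate at 4 and at 1.2. On the left the CDK9, dBET6 and THAL-SNS-032 columns carry 33 dots each; on the right the calls go both ways, 3 lower and 13 higher in the CDK9 line.

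After dTAG7 in the CDK9 line, dBET6 and THAL-SNS-032 the members kept unequal shares of their RNA. On the spike-in scale no member rose in the CDK9 line (0.224% of all genes), after dBET6 (0.423%) or after THAL-SNS-032 (0.256%). In the CDK9 line the values ran from -3.94 ± 0.29 for PSMC6 and -3.49 ± 0.12 for PSMD7, a lid subunit that pairs with PSMD14, to -1.98 ± 0.10 for PSMD2, a base subunit that docks ubiquitin shuttles. After dBET6 they ran from -4.87 ± 0.23 for PSMD6, -4.43 ± 0.12 for PSMD7 and -4.31 ± 0.15 for PSMD12 to -2.62 ± 0.22 for the ATPase gene PSMC1. After THAL-SNS-032 they ran from -3.42 ± 0.30 for the alpha-ring gene PSMA5 and -3.33 ± 0.20 for PSMD6 to -1.93 ± 0.21 for PSMC1. PSMB5 fell by 3.14 in the CDK9 line, by 3.93 after dBET6 and by 3.05 after THAL-SNS-032; PSMD14 fell by 2.83, 3.92 and 2.88. Each of these 33 calls in the 3 comparisons held with any 1 library left out.

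Calls went both ways on the TMM scale. In the CDK9 line 3 were lower (27% of all genes) and 13 higher (21.1%), with a median of 0.29 against -0.09 for all genes. The higher ones were PSMA1, PSMA2, PSMA4, PSMA7, PSMB1, PSMB2, PSMB4 and PSMB6 of the core, PSMC3, PSMD1, PSMD2 and PSMD8 of the regulatory particle, and the chaperone PSMD10 (gankyrin), and the lower ones PSMB5, PSMC6 and PSMD7. By role the median was 0.51 for the 14 core genes, with 8 higher and 1 lower, and 0.00 for the 17 regulatory genes, with 4 higher and 2 lower. After dBET6 5 were lower (23.2% of all genes) and 10 higher (18.2%), with a median of 0.12 against -0.10; core genes had a median of 0.20, the 17 regulatory genes of -0.21 and the 8 lid genes among them of -0.32. After THAL-SNS-032 3 were lower (16% of all genes) and 7 higher (14%), with a median of 0.12 against -0.05; here core and regulatory genes lay close together, with medians of 0.14 and 0.12. Other factors moved this scale: with median-of-ratios factors the median of all genes shifted by 0.10 in the CDK9 line, 0.14 after dBET6 and 0.07 after THAL-SNS-032, no called member changed sign, and PSMB5 was called lower in none of the 3. In the CDK9 line the 13 higher calls became 7 without dTAG7 library A, the deepest of that group, when PSMA1, PSMA2, PSMB1, PSMB6, PSMC3 and PSMD1, and the fall of PSMB5, were lost. Without any 1 library, 7 of the 15 calls after dBET6 held (PSMA4, PSMA7, PSMC3, PSMD6, PSMD7, PSMD8 and PSMD12) and 4 of the 10 after THAL-SNS-032 (PSMA7, PSMC1, PSMC3 and PSMD2).

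PSMB5 and PSMD7 were lower on the TMM scale in all 3 comparisons. The share of all genes lower in all 3 is not given here. PSMB5 read 230, 202 and 223 TMM-scaled CPM in CDK9-line DMSO and 159, 219 and 163 with dTAG7, so library B overlapped the DMSO group, and its log2 fold change was -0.33 ± 0.10. In wild-type cells it read 221, 209 and 230 in DMSO, 190, 148 and 182 with dBET6 (-0.35 ± 0.11) and 185, 184 and 186 with THAL-SNS-032 (-0.25 ± 0.10), without overlap. Its dBET6 call was lost without dBET6 library B, and its THAL-SNS-032 call without any of DMSO libraries A and C or THAL-SNS-032 libraries A, B and C; DESeq2 called it in none of the 3. PSMD7 read 219, 208 and 216 TMM-scaled CPM in CDK9-line DMSO and 141, 111 and 147 with dTAG7, and 209, 210 and 219 in wild-type DMSO, 116, 122 and 115 with dBET6 and 167, 203 and 166 with THAL-SNS-032. The treated libraries lay below every DMSO library of the same cells, by the widest margin after dBET6. Its log2 fold change was -0.65 ± 0.10 in the CDK9 line, -0.85 ± 0.11 after dBET6 and -0.24 ± 0.10 after THAL-SNS-032. The last call was marginal (edgeR adjusted p = 0.0498) and was lost without any of wild-type DMSO libraries A, B and C or THAL-SNS-032 libraries A and C, and with DESeq2 and median-of-ratios factors.

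PSMD6 and PSMD12, both scaffold subunits of the lid, were called lower after dBET6. PSMD6 read 56, 54.2 and 61.9 TMM-scaled CPM in wild-type DMSO, 20.9, 19.1 and 29.3 with dBET6 and 45, 39.1 and 35.8 with THAL-SNS-032. Its dBET6 libraries held 9, 11 and 15 reads, so its fold change of -1.32 ± 0.24 rests on few counts. PSMD12 read 116, 110 and 108 in DMSO, 72.0, 48.8 and 82.0 with dBET6 and 98.8, 106 and 100 with THAL-SNS-032. After dBET6 PSMD12 was lower by -0.74 ± 0.14, and after THAL-SNS-032 it was not called, at -0.13. PSMD6 was called lower after THAL-SNS-032 too (-0.53 ± 0.18, edgeR adjusted p = 0.0218), a call lost without DMSO library C or THAL-SNS-032 library B or C and with DESeq2. Its direct TMM difference between dBET6 and THAL-SNS-032 was not called (-0.79 ± 0.28, edgeR adjusted p = 0.0911). PSMC6 was low in the CDK9 line, from 33.7, 38.1 and 40.1 in DMSO to 18.8, 14.6 and 17.1 with dTAG7 (-1.10 ± 0.29), on 22, 5 and 10 reads.

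PSMA4, PSMA7, PSMB4, PSMC3, PSMD2 and PSMD8 were higher on the TMM scale in each of the 3 comparisons, of which 2 share their controls. PSMA4 read 818, 808 and 860 TMM-scaled CPM in CDK9-line DMSO and 1325, 1072 and 1175 with dTAG7. In wild-type cells it read 875, 785 and 748 in DMSO, 975, 1025 and 931 with dBET6 and 941, 1110 and 920 with THAL-SNS-032, above every DMSO library in each case. PSMD2 read 193, 222 and 225 in CDK9-line DMSO and 398, 453 and 313 with dTAG7, the largest TMM rise there at 0.84 ± 0.12 (edgeR adjusted p = 3.66e-08). Its rise after dBET6 (0.41 ± 0.13) was lost without dBET6 library B, and after THAL-SNS-032 that of PSMA4 was lost without THAL-SNS-032 library B. The rise of PSMB4 was lost without any of 3 libraries after dBET6 and of 3 after THAL-SNS-032. That of PSMD8 was lost without any of 4 libraries after THAL-SNS-032, and that of PSMC3 without dTAG7 library A in the CDK9 line. Of the 6 genes, only PSMA7 held in all 3 comparisons with any 1 library left out. PSMC1 was highest after both wild-type treatments. It read 27.7, 30.4 and 27.6 in DMSO, 51.1, 41.8 and 72.2 with dBET6 (0.94 ± 0.24) and 52.3, 52.9 and 51.6 with THAL-SNS-032 (0.88 ± 0.21). Without dBET6 library C its dBET6 call was lost. PSMC1 stood among the lowest members in wild-type DMSO (37.9 spike-in-scaled CPM) and the treated libraries were shallow, so the counts behind its rise were limited. These genes all lost RNA on the spike-in scale, by less than most genes. No member was called lower in one of the 3 comparisons and higher in another, and 12 were called in none. Shares of all genes called alike in the 3 comparisons are not given here, so these counts have no background beside them. Over all genes tested, TMM fold changes in the CDK9 line had a Pearson r of 0.65 with those after THAL-SNS-032 and 0.68 with those after dBET6.

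**Figure D3:**
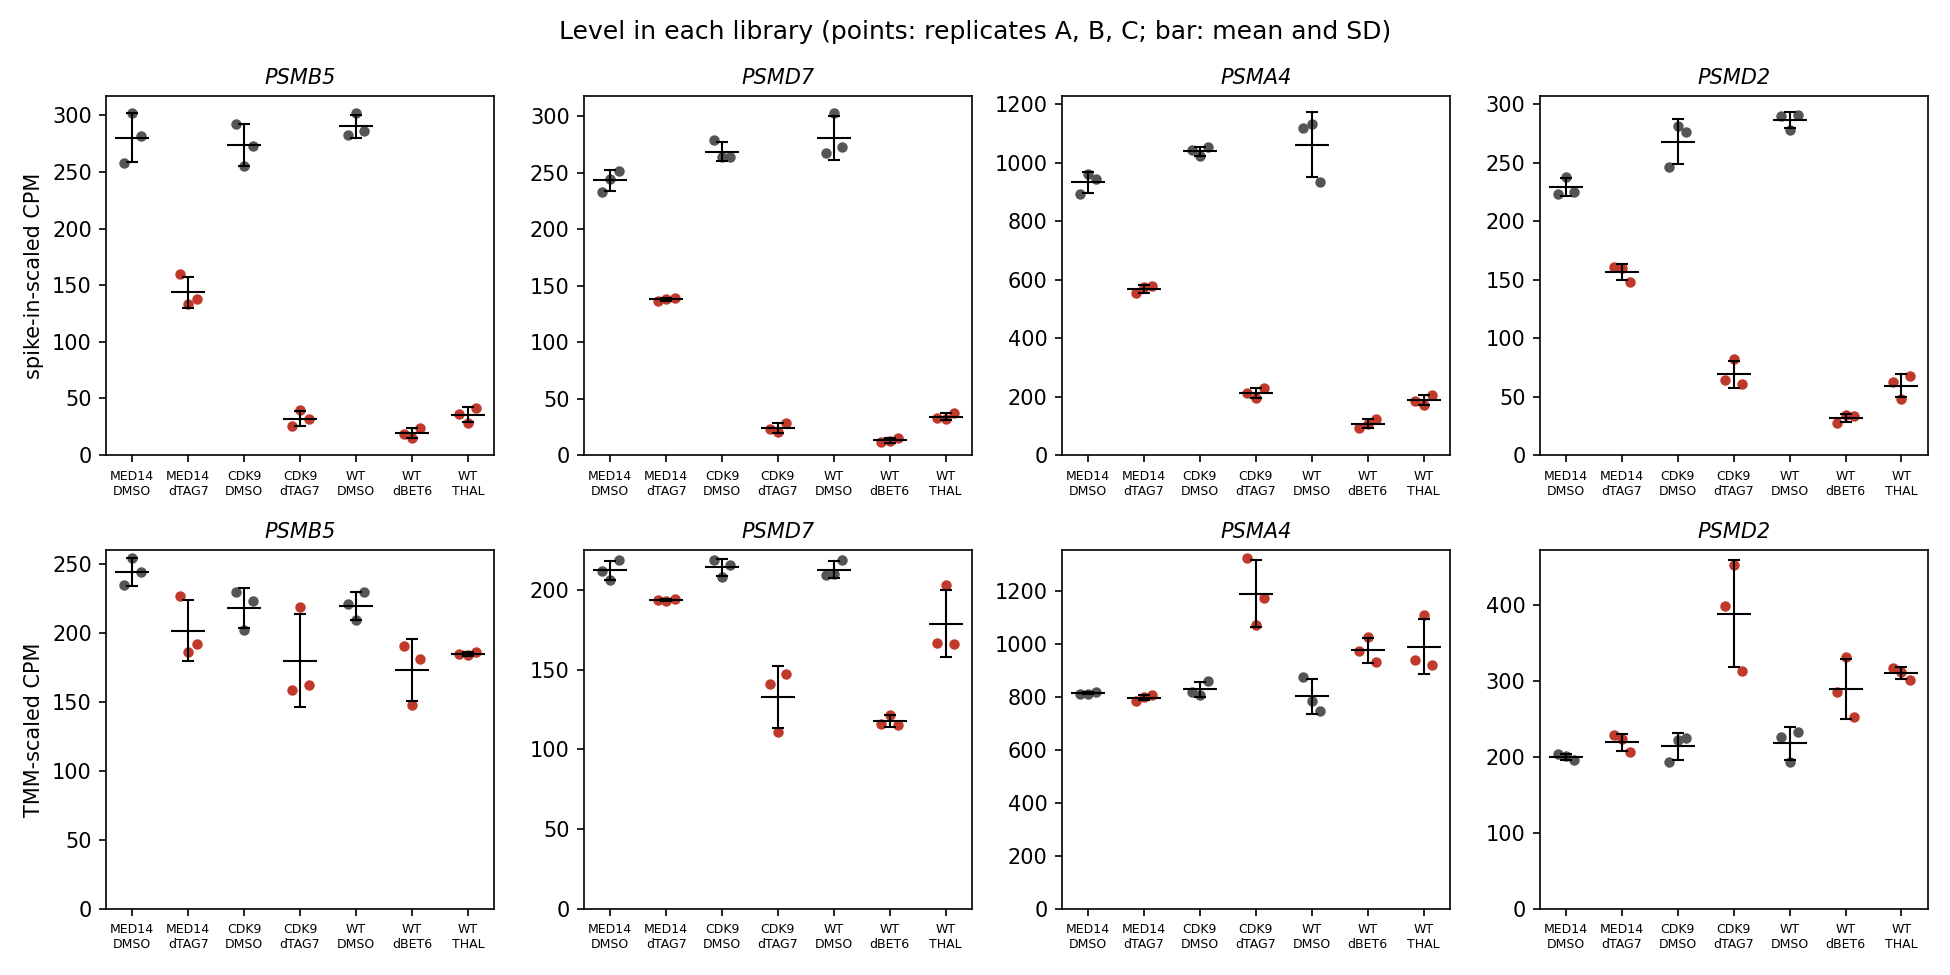
Level of PSMB5, PSMD7, PSMA4 and PSMD2 in each library (points) with the mean and SD of 3 libraries (bars), in DMSO (grey) and treated (red) groups; the vertical axes are spike-in-scaled CPM (top) and TMM-scaled CPM (bottom), and THAL is THAL-SNS-032. All treated libraries lie below DMSO in the top row, while in the bottom row PSMD2 with dTAG7 in the CDK9 line reaches 313 to 453 against 193 to 225 in DMSO.

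dBET6 at 100 nM left less RNA than THAL-SNS-032 at 250 nM for 29 members on the spike-in scale (53.4% of all genes), and for none was it higher (0.392%); the 2 agents and doses differ. The members' median difference was -0.80, against -0.82 for all genes. On the TMM scale 2 lid genes were lower with dBET6 (2.52% of all genes) and 0 higher (2.12%): PSMD7 at -0.61 ± 0.12 and PSMD12 at -0.61 ± 0.16. Neither group of PSMD7 values overlapped the other, with 116, 122 and 115 against 167, 203 and 166. PSMD12 was lost without dBET6 library B or THAL-SNS-032 library B, and DESeq2 called 1 of the 2.

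The 2 treatments aimed at CDK9, dTAG7 in the tagged line and THAL-SNS-032 in wild-type cells, have separate controls. Their effects differed for 0 members on the spike-in scale (2.23% of all genes more negative in the tagged line, 0.416% less), and DESeq2 called 0. An unadjusted edgeR p under 0.05 was found for 7 members and for 2175 of the 12515 genes tested. The effects differed on the TMM scale for 1 member (1.85% of all genes higher, 3.62% lower). It was PSMB2, a beta-ring subunit without a proteolytic site, at 0.43 ± 0.13 (edgeR adjusted p = 0.0374). PSMB2 read 283, 280 and 271 TMM-scaled CPM in CDK9-line DMSO and 472, 441 and 388 with dTAG7, but 236, 253 and 302 in wild-type DMSO and 291, 316 and 310 with THAL-SNS-032, where the groups overlapped. This call was lost without any of 9 of the 12 libraries, among them wild-type DMSO library C. Across the 33 members, TMM fold changes in the CDK9 line and after THAL-SNS-032 had a Pearson r of 0.56 and a Spearman rho of 0.65 (0.65 and 0.71 over all 12892 genes). In the CDK9 line and after dBET6 they had 0.68 and 0.76 (0.68 and 0.73 over all genes), as a description over genes that share libraries and depth.

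**Figure D4:**
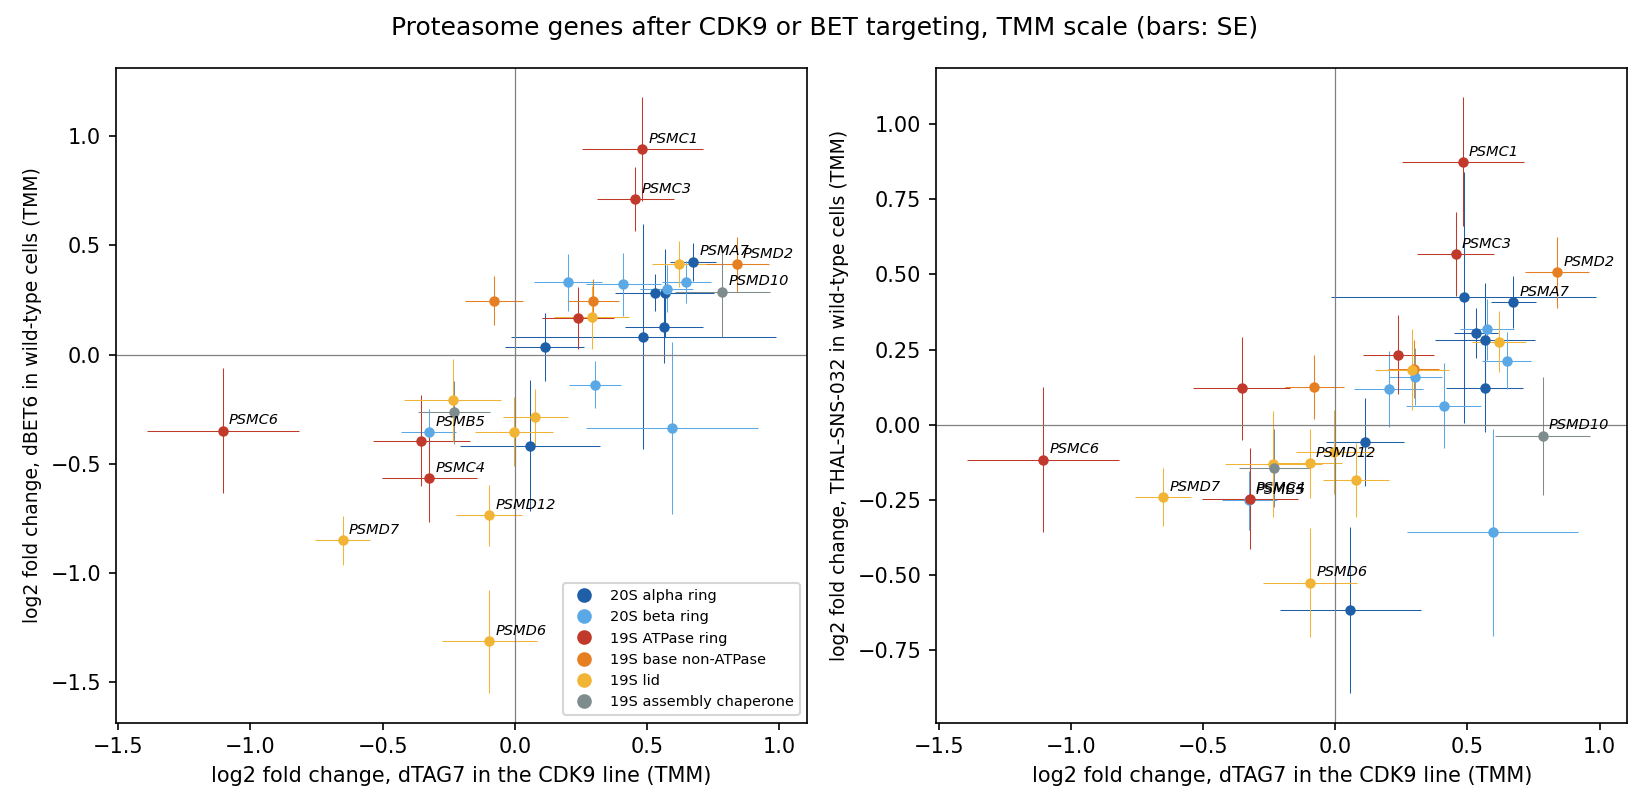
TMM-scale log2 fold change of each member in the CDK9 line with dTAG7 (horizontal axis) against the fold change after dBET6 (left) or THAL-SNS-032 (right) in wild-type cells; bars are SE and colours give the role. PSMD7 lies in the lower left of both panels, at -0.65 in the CDK9 line, and PSMD6 is low after dBET6 at -1.32.

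Although the median member rose on the TMM scale, the members' summed share of human counts fell in these groups. It was 0.702% ± 0.00623 (SD, n = 3) in CDK9-line DMSO and 0.647% ± 0.0179 with dTAG7. In wild-type cells it was 0.687% ± 0.0167 in DMSO, 0.557% ± 0.0301 with dBET6 and 0.622% ± 0.0230 with THAL-SNS-032, with no overlap between DMSO and either treatment. All human counts together stood at 19.2%, 11.3% and 17.6% of DMSO on the spike-in scale in the CDK9 line, after dBET6 and after THAL-SNS-032, above the median member's 17.2%, 9.39% and 15.5%. In the MED14 line the share went from 0.713% ± 0.00329 to 0.694% ± 0.00710.

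Of 36 other genes of the pathway listed beside the members, 32 were in the table and 31 were tested. On the spike-in scale 29 fell in the MED14 line (63.3% of all genes), and all 31 in the CDK9 line (95.3%), after dBET6 (97.1%) and after THAL-SNS-032 (96.2%). TMM calls gave 10 lower and 1 higher in the MED14 line (16.6% and 13.4% of all genes) and 10 and 11 in the CDK9 line (27% and 21.1%). They gave 11 and 6 after dBET6 (23.2% and 18.2%), and 8 and 7 after THAL-SNS-032 (16% and 14%). Chaperones of core assembly went both ways on the TMM scale. PSMG1, which helps build the alpha ring, was lower by -1.01 ± 0.12 in the MED14 line and -0.90 ± 0.15 in the CDK9 line. It was also lower by -1.08 ± 0.16 after dBET6 and -0.86 ± 0.14 after THAL-SNS-032. POMP, the maturation factor of the core, was higher by 0.53 ± 0.08 in the CDK9 line, 0.41 ± 0.09 after dBET6 and 0.25 ± 0.08 after THAL-SNS-032.

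The values in this paragraph are on the TMM scale. On the spike-in scale every other pathway gene tested fell in the CDK9 line, after dBET6 and after THAL-SNS-032. A gene called higher here in those comparisons thus fell by less than the bulk of genes. Fits with libraries left out were read for the members only. Among regulators of the members, NFE2L1 was lower by -0.66 ± 0.16 in the CDK9 line, -0.85 ± 0.17 after dBET6 and -0.56 ± 0.15 after THAL-SNS-032. It was not called in the MED14 line, at 0.23. DDI2, the protease that activates the NFE2L1 protein, and NGLY1, which removes its sugars, were lower in all 4: DDI2 by -0.41 ± 0.12 and NGLY1 by -0.80 ± 0.14 in the MED14 line. MAFG, a small Maf partner of NFE2L1, was higher by 0.71 ± 0.14 in the MED14 line, 1.14 ± 0.16 in the CDK9 line and 0.79 ± 0.17 after THAL-SNS-032, and stood at -0.04 after dBET6. SEM1, the small lid subunit outside the listed names, was higher by 0.96 ± 0.15 in the CDK9 line, 0.84 ± 0.16 after dBET6 and 0.59 ± 0.15 after THAL-SNS-032, while ADRM1, a ubiquitin receptor, was lower in the CDK9 line (-0.34 ± 0.14) and after dBET6 (-0.51 ± 0.16). PSME1 and PSME2, which form the PA28 activator cap, were higher in all 3; PSME1 stood at 0.57 ± 0.08 in the CDK9 line.

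Reads shared with other loci were not measured. GENCODE 29 lists 30 pseudogenes of 11 members, of which 1 is in the count table, and 9 members overlap another gene in the table. PSMC1, the highest member after both wild-type treatments, has 13 of the 30 pseudogenes and the 1 in the table. It also overlaps NRDE2. The strand setting of the counting was not given in the sources used here, so reads of overlapping genes may not be fully separated.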

How the data were processed

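Quant-seq counts in 66 libraries of KBM7 cells (22 groups of 3) were analysed. The authors deposited raw read counts per gene and a spike-in loess-normalized signal table; STAR 2.5.2b, HTSeq 0.6.0, bedtools 2.26.0 and hg38 are named, without roles, per the submitters' processing notes. The loess program and the strand setting are not given in the sources used here. The deposited counts had rows for 13331 human genes, 37 ERCC and 7 SIRV spike-ins, with 439261 to 4337368 human counts per library; precision is limited by these depths and by 3 libraries per group. The deposited loess signal was used only as an alternative, as log2 of the value plus 1.

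Library sizes came from spike-in counts or, on the second scale, from TMM factors. edgeR 4.0.16 (R 4.3.3) fitted 22 group means over all 66 libraries after filterByExpr (12515 and 12892 genes tested) with the quasi-likelihood test and Benjamini-Hochberg adjustment over all genes tested, threshold 0.05. Standard errors are the absolute log2 fold change over the square root of F. The 12 comparisons set each treatment against the same cells in DMSO; further contrasts compared dBET6 with THAL-SNS-032, the MED14-line with the wild-type dTAG7 effect, the CDK9-line with the THAL-SNS-032 effect, and the 8 Mediator effects. Alternatives were DESeq2 1.42.0, median-of-ratios factors, no low-count filter, a replicate block, each comparison's libraries alone, limma 3.58.1 on the loess signal, and each library left out. The scripts were tested on simulated counts. The members, gene lists and tests were chosen with earlier results of these data known. Any member could be named. When libraries were left out, PSMB5 and PSMD14 were tracked in every comparison, with the members of lowest and highest fold change. Not all of these values are given here. Promoter motifs were searched on both strands.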

Additional observations from a re-analysis of the deposited data

Results flagged for a closer look

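For 30 of the 33 members the change with dTAG7 on the spike-in scale was more negative in MED14-tagged than in untagged cells (edgeR interaction test; 57.1% of all genes); 26 of the 30 held with any 1 library left out. The dTAG7 effect differed among the 8 Mediator lines for 24 members on the spike-in scale (46.2% of all genes), of which 18 held with any 1 library left out, and for 0 on the TMM scale (12.4%). The effect of dTAG7 in the CDK9 line differed from that of THAL-SNS-032 in wild-type cells for 1 member on the TMM scale, PSMB2, which was higher in the CDK9 line (1.85% of all genes were higher and 3.62% lower), and this call was lost without any of 9 libraries. The cause of these differences was not tested.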

How the results depend on the processing

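No result changed direction past a threshold, and on the spike-in scale all 33 members were lower in the CDK9 line, after dBET6 and after THAL-SNS-032 under each alternative run except the CDK9 line's libraries alone, which gave 32. On the spike-in scale, fitting each comparison's libraries alone gave 15 members lower in MED10, 0 in MED6, 1 in MED28 and 1 in MED26; DESeq2 gave 1 lower in MED26, and limma on the loess signal 6 lower in MED6. On the TMM scale, DESeq2 gave 1 lower in MED14, 2 in MED6, 3 after dBET6, 0 after THAL-SNS-032 and 1 for dBET6 against THAL-SNS-032, and 3 higher for the CDK9 line against THAL-SNS-032. Median-of-ratios factors gave 1 lower in MED14, 3 after dBET6, 1 after THAL-SNS-032, and 2 higher for the CDK9 line against THAL-SNS-032. The comparison's libraries alone gave, on the TMM scale, 3 higher in MED14, 5 lower and 1 higher in MED10, 0 lower in MED6, 1 lower in MED28, 3 lower after dBET6, 1 lower after THAL-SNS-032, 0 lower for dBET6 against THAL-SNS-032, and 1 lower for the MED14 line against wild type. That fit has fewer libraries and residual degrees of freedom, and the cause of the differing counts was not tested. Shares of all genes called under each alternative are not given here, so these member counts have no background beside them.

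With each library left out in turn, spike-in counts ranged from 2 to 5 lower in MED10, 3 to 16 lower in MED6, and 0 to 1 lower for the CDK9 line against THAL-SNS-032. TMM counts ranged from 0 to 2 lower in MED14, 0 to 3 lower and 0 to 3 higher in MED6, 0 to 1 lower and 0 to 1 higher in MED12, 7 to 13 higher in the CDK9 line, 0 to 2 lower after THAL-SNS-032, 1 to 2 lower for dBET6 against THAL-SNS-032, 0 to 2 higher for the CDK9 line against THAL-SNS-032, and 0 to 1 differing among the Mediator lines. Counts were limited most in the shallow CDK9, dBET6 and THAL-SNS-032 libraries. Libraries with the same replicate letter shared little beyond their groups. Same-letter correlations ran from -0.236 to 0.0649, and 0 of 12 comparisons had every pair above 0.1. These values cannot tell whether the wells were paired by design. A fit with the replicate letter as a block gave 32 lower in MED14, 6 in MED10 and 12 in MED6, and moved no count by over 1.5 times; under it PSMD7 after THAL-SNS-032 on the TMM scale was not called (edgeR adjusted p = 0.0531). DESeq2 was not run for the test among the Mediator lines.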
